A study of Mus musculus with 17 samples.

Results

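The CXC chemokine ligands are 10 genes, Cxcl1, Cxcl2, Cxcl3, Cxcl5, Cxcl9, Cxcl10, Cxcl12, Cxcl13, Cxcl14 and Cxcl16, taken by symbol from the 25124 genes that each of 3 deposited tables lists. They were measured by RNA-seq in 17 samples of Kupffer cells (KCs), macrophages that live in the sinusoids of the liver, sorted from mice. TIM4+CD206+ KCs gave 3 tumour-free and 3 tumour-bearing samples, and TIM4+CD206hi KCs also 3 of each. Tumour-bearing mice had received KPC cells, a mouse pancreatic carcinoma line, through the portal vein 2 weeks earlier, and tumour-free mice were untreated. The last set held 3 samples of KCs from Id3f/f mice, which carry floxed Id3 alleles, and 2 from Clec4fCreId3f/f mice, in which the Clec4f promoter drives Cre in KCs; these mice were littermates without tumour and untreated. Both genotypes carry the floxed Id3 alleles, and the labels used here give no age or sex for any group. The values are on a log2 scale and were normalized separately in each table, so that groups were compared within a table only.

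CXC chemokines are small secreted proteins, named for the residue between their first cysteines, that guide leukocytes through G-protein-coupled receptors. Cxcl1, Cxcl2, Cxcl3 and Cxcl5 attract neutrophils through Cxcr2, and NF-kB induces several of them. Cxcl9 and Cxcl10 are induced by interferons, mainly interferon gamma, and attract T and NK cells through Cxcr3. The homeostatic ligands serve steady traffic: Cxcl12 acts on Cxcr4, Cxcl13 on the B cell receptor Cxcr5, and Cxcl16, made as a membrane-bound protein, on Cxcr6, while Cxcl14 is made mainly by epithelia and stroma. ID3 lacks a DNA-binding domain and sequesters E proteins, the factors that bind E-box sequences such as CAGCTG.

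The 4 neutrophil-attracting genes lie on chromosome 5 of GRCm38 within 146641 bases, and Cxcl9 and Cxcl10 lie on the same chromosome with 18558 bases between them. Cxcl13 is also on chromosome 5, at chr5:95956939-95961068, while Cxcl12 is on chromosome 6, Cxcl14 on chromosome 13 and Cxcl16 on chromosome 11. A RefSeq promoter sequence (GRCm38.p6) was found for 8 of the 10 genes, all but Cxcl5 and Cxcl16. The 250 bases before the transcript start are shown for the neutrophil-attracting gene with the highest values, for both interferon-induced genes and for Cxcl13, whose values moved most with Id3 deletion. Capitals mark matches, on either strand, to GGANTTNCC (NF-kB core), GAAANNGAA (core of the interferon-stimulated response element, ISRE), TTCNNNGAA (interferon gamma-activated site, GAS) and CAGCTG (E-box).
Cxcl2, chr5:90903649-90903898, plus strand: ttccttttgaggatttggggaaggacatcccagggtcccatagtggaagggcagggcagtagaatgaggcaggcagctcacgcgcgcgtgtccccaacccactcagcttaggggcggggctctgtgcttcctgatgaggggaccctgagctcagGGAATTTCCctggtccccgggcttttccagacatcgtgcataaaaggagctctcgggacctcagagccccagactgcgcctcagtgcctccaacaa
Cxcl9, chr5:92328080-92328329, minus strand: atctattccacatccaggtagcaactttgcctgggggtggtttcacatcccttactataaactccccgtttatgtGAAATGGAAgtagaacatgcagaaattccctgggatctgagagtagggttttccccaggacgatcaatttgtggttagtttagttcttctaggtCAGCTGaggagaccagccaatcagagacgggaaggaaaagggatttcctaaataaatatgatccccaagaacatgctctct
Cxcl10, chr5:92348890-92349139, minus strand: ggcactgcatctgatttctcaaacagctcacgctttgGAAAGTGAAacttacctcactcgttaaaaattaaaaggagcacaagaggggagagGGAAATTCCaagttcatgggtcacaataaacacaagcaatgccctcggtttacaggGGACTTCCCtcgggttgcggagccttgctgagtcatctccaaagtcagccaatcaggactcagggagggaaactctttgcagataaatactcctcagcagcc
Cxcl13, chr5:95956689-95956938, plus strand: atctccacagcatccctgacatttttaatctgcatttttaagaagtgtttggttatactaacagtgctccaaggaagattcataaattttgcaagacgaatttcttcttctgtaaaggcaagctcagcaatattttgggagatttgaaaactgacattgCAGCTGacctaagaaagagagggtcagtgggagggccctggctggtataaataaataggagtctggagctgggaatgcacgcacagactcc

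The NF-kB core was present in the windows of Cxcl1, Cxcl2, Cxcl3 and Cxcl10, against 3.15% of 32851 RefSeq promoter windows of this length. In Cxcl1, Cxcl2 and Cxcl3 it was the same word, GGAATTTCC, which began 70, 96 and 72 bases before the start. The Cxcl10 window held the core at 2 places, beginning 158 and 102 bases before the start. The ISRE core was present in Cxcl9, Cxcl10 and Cxcl14, against 7.13% of windows, and began 175 bases before the start of Cxcl9 and 213 before that of Cxcl10. GAS letters were found in the Cxcl14 window only among the 8, against 7.02% of windows. That window, chr13:56296552-56296801, lies inside the annotated span of the gene, chr13:56288643-56296811. The CAGCTG E-box was present in Cxcl9, 81 bases before the start, and in Cxcl13, 91 bases before it, against 13% of windows. These are matches of letters and were not tested as binding sites.

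Some limits of the measurement belong to single genes. The transcripts of Cxcl2 and Cxcl3 share a run of 157 bases, so that part of their reads cannot be told apart, while Cxcl1 shares at most 23 bases with either. Exons of Cxcl16 overlap those of Zmynd15, and counting by strand is not given in the sources used here, so that reads of the overlap may belong to either gene.

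KC identity and the deletion were checked first. Clec4f, a KC marker, had log2 values of 16.11 to 19.65 and Timd4, which encodes TIM4, of 13.76 to 15.25 in the 17 samples. Id3 was at 12.58, 12.46 and 12.82 in the Id3f/f samples and at 9.83 and 9.82 in the Clec4fCreId3f/f samples. Xist was at 6.33 to 6.38 in Id3f/f and at 9.76 to 9.84 in Clec4fCreId3f/f samples, and the Y-linked Ddx3y at 9.43 to 9.46 and at 7.0, so that sex and genotype cannot be told apart in this comparison. Tumour-free replicates 3 and 2 of TIM4+CD206hi KCs stood furthest from their group: over the genes tested, they differed from the mean of the other replicates by a median of 0.483 and 0.401 on the log2 scale, against 0.106 to 0.272 in the other TIM4+CD206hi libraries. The 1053 genes called in that comparison became 3634 without replicate 2 and 1276 without replicate 3. Id3 was at 13.43 in replicate 3 against 14.49 and 14.62 in the others.

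Markers of other cells moved with the tumour in both subsets. All 9 epithelial tumour markers rose, and their summed level on the linear scale went from between 1769 and 3444 to between 39493 and 46127 in TIM4+CD206+ KCs, and from between 1776 and 2444 to between 51359 and 54216 in TIM4+CD206hi KCs. Of 8 neutrophil markers, 3 rose in each subset, and their summed level went from between 8161 and 16903 to between 31479 and 34557 in TIM4+CD206+ KCs and from between 5668 and 13089 to between 15352 and 24078 in TIM4+CD206hi KCs. Of 7 monocyte markers, 2 rose in TIM4+CD206+ and 3 in TIM4+CD206hi KCs, and their sum lay between 12234 and 30870 without and between 37360 and 40580 with tumour in the former, and between 10943 and 18209 and between 21938 and 26559 in the latter. Endothelial markers summed to between 171727 and 269869 in tumour-free and between 109988 and 137997 in tumour-bearing TIM4+CD206hi KCs, where 2 of 8 fell. In TIM4+CD206+ KCs, whose table was normalized apart, they summed to between 16240 and 27965 without and 12418 and 16400 with tumour, where limma called 0 of 8, and 3 had an unadjusted p under 0.05. Hepatocyte markers were lower with tumour: 6 of 8 fell in TIM4+CD206+ KCs, where they summed to between 18464 and 23641 without and between 5607 and 7791 with tumour, and 5 of 8 fell in TIM4+CD206hi KCs, from between 21900 and 28368 to between 5877 and 7760. Of 8 KC markers 3 fell in TIM4+CD206+ KCs, and limma called 0 in TIM4+CD206hi KCs, where 4 had an unadjusted p under 0.05. The 8 summed to between 1528250 and 2101570 without and between 1104680 and 1174240 with tumour in TIM4+CD206+ KCs. In TIM4+CD206hi KCs the sums were 800368 to 1195180 and 729958 to 840472, which overlap. No defining marker was at 0 in the tumour tables. Ly6g, Vcan, Krt20 and Gkn1 were at 0 in every library of the Id3 table, where 1 of 6 tested monocyte markers (Plac8) fell and the monocyte sum was 12202 to 14626 in Id3f/f and 7001 to 7553 in Clec4fCreId3f/f samples. Plac8, with a mean log2 value of 13.64 in Id3f/f and 12.69 in Clec4fCreId3f/f samples, made up most of that sum. Of these 6 markers 3 were above and 3 below 0, with a median log2 fold change of 0.015. Of 6 neutrophil markers tested there, limma called 0, and 0 had an unadjusted p under 0.05. With Id3 deletion 3 of 8 KC markers rose and 1 fell, among them the macrophage marker Adgre1 (0.79, SE 0.08, limma adjusted p = 0.00165) and Clec4f, whose promoter drives the Cre (-1.52, SE 0.06, adjusted p = 1.80e-06). Of 8 endothelial markers Pecam1 rose (0.58, limma adjusted p = 0.0180) and Clec4g fell (-0.80, adjusted p = 0.0179), with sums of 12008 to 14270 in Id3f/f and 12676 to 12938 in Clec4fCreId3f/f samples. Of 8 hepatocyte markers Tat rose (0.77, limma adjusted p = 0.0182), with sums of 18504 to 25074 and 23193 to 26955. The part of these cells in the ligand values was not tested.

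**Figure D1:**
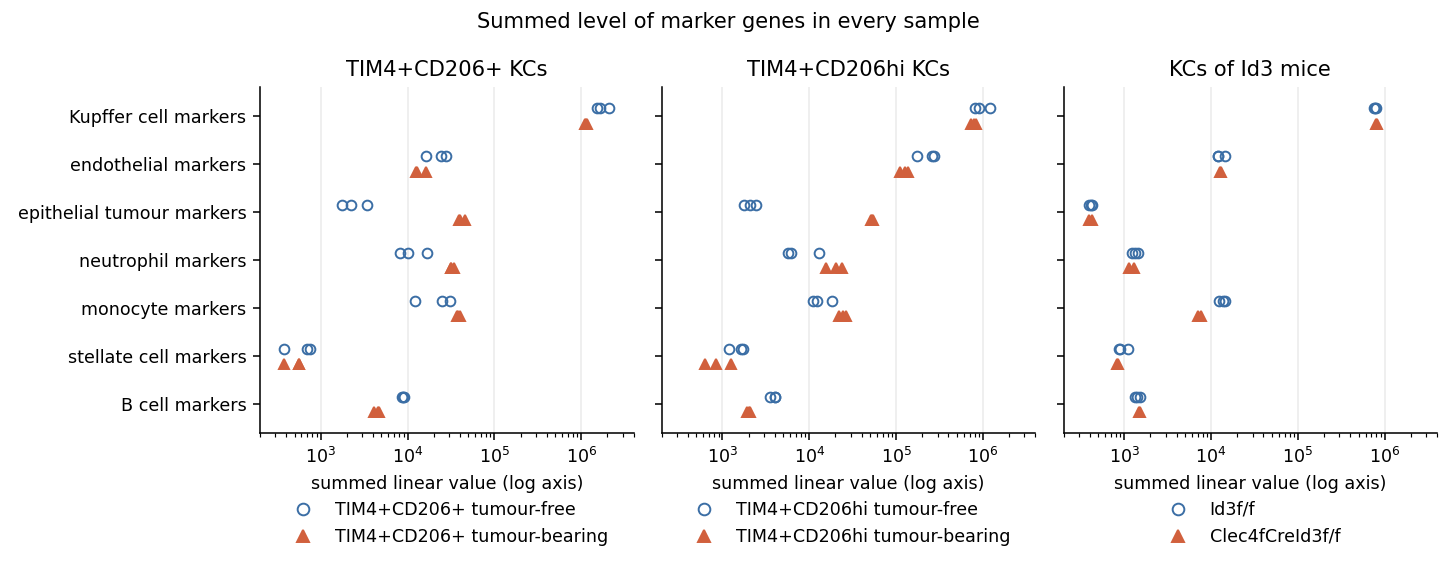
Summed linear value (log axis) of the Kupffer cell, endothelial, epithelial tumour, neutrophil, monocyte, stellate cell and B cell markers in every sample, with a panel for each deposited table. Epithelial tumour markers of the 2 tumour-bearing groups lie at 39493 to 54216, above every tumour-free sample of their table. The tables were normalized separately.

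Levels were compared between genes only per length, as the log2 value per kb of exon. In all 6 groups Cxcl16 was the highest, followed by Cxcl13 and then Cxcl10. In tumour-free TIM4+CD206+ KCs the level per kb of Cxcl16 was 12.61 ± 0.10 (SD, n = 3), that of Cxcl13 10.11 ± 0.34 and that of Cxcl10 9.43 ± 0.45, and the samples of these neighbours did not overlap. Cxcl16 lay at the 97.1 to 97.8 percentile of all genes with reads there.

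The order was less distinct in tumour-free TIM4+CD206hi KCs. There the level per kb was 11.93 ± 0.46 for Cxcl16, 11.70 ± 0.40 for Cxcl13, 11.30 ± 1.05 for Cxcl10 and 10.24 ± 1.06 for Cxcl9 (SD, n = 3), and each of these overlapped its neighbour. In their tumour-bearing counterparts Cxcl16, at 11.86 ± 0.14, was clear of Cxcl13, at 10.42 ± 0.46. Among the lower genes, Cxcl2 had rank 5 in 5 of the 6 groups and rank 4 in tumour-bearing TIM4+CD206hi KCs, at 8.08 ± 0.36, where it overlapped Cxcl9. Cxcl12, Cxcl3 and Cxcl5 held the last places of both tumour tables.

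As a share of the 10 genes' summed level per kb, Cxcl16 made up 67.7% to 77.9% in tumour-free and 79.0% to 85.7% in tumour-bearing TIM4+CD206+ KCs. Its share was 19.2% to 45.5% without and 49.9% to 61.5% with tumour in TIM4+CD206hi KCs. Of the Id3 samples, Cxcl16 took 58.2% to 63.2% in Id3f/f and 45.3% to 46.8% in Clec4fCreId3f/f samples, while Cxcl13 took 14% to 24.4% and 39.6% to 40.7%. Shares of one sum depend on each other.

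**Figure D2:**
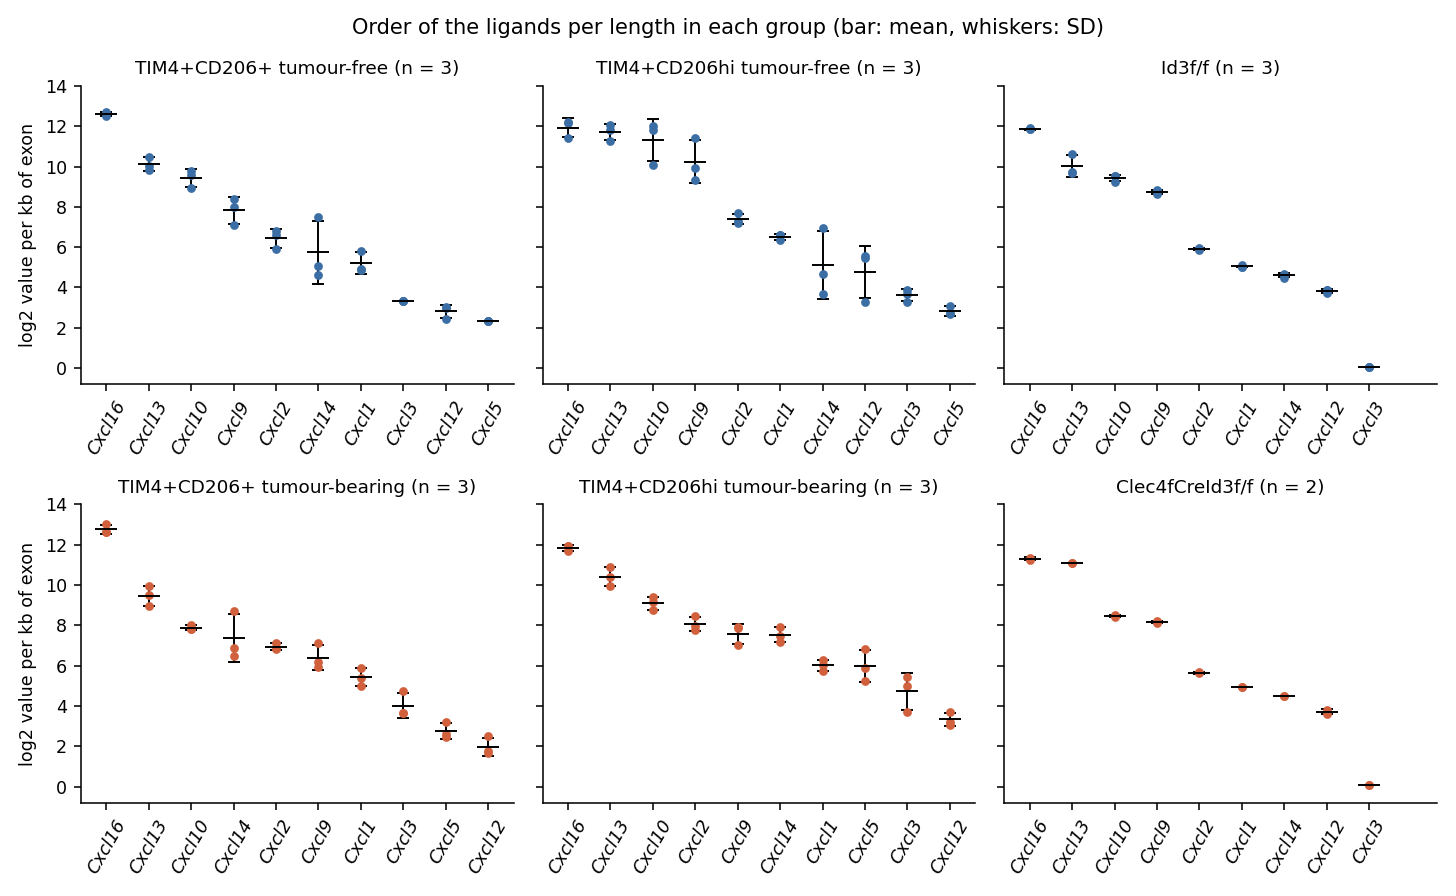
Log2 value per kb of exon of each ligand in the 6 groups, in descending order; points are samples, bars the mean and whiskers the SD. Cxcl16, Cxcl13 and Cxcl10 are the first 3 in every panel, and Cxcl5, at 0 in all samples of the Id3 table, is not drawn there.

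Changes were tested with limma across all genes, and a gene was called at a Benjamini-Hochberg adjusted p under 0.05. In TIM4+CD206+ KCs, 9 of the 10 ligands passed the filter on low values; 0 were called higher by limma, with 1 at an unadjusted p under 0.05, and 1, Cxcl10, was called lower with tumour, against 2.55% and 0.998% of 13233 genes. All 10 passed in TIM4+CD206hi KCs; Cxcl5 was called higher and Cxcl9, Cxcl10 and Cxcl13 lower, against 5.21% and 2.03% of 14561 genes. In the Id3 comparison 8 passed, all but Cxcl3 and Cxcl5; Cxcl13 was called higher and Cxcl9, Cxcl10 and Cxcl16 lower in Clec4fCreId3f/f KCs, against 3.08% and 3.37% of 12833 genes. An unadjusted limma p under 0.05 was found for 2272, 3069 and 3033 genes of the 3 comparisons, in that order. These numbers are the background for the counts of every gene list, above and below.

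Groups of samples that did not overlap were commoner. With tumour, 2 ligands of 9 were higher (Cxcl2 and Cxcl3) and 1 lower (Cxcl10) in every TIM4+CD206+ sample, against 12.9% and 10.5% of all genes tested. Of 10 ligands in TIM4+CD206hi KCs, 3 were higher (Cxcl2, Cxcl5 and Cxcl14) and 4 lower (Cxcl1, Cxcl9, Cxcl10 and Cxcl13), against 15.6% and 15.2%. In the Id3 comparison 1 of 8 was higher (Cxcl13) and 5 were lower (Cxcl1, Cxcl2, Cxcl9, Cxcl10 and Cxcl16), against 20.2% and 21.7%. The median log2 fold change of the ligands tested was 0.15, -0.29 and -0.18 in the 3 comparisons, and that of all genes tested 0.02, 0.03 and 0.00.

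The median shift of the ligands under another scaling passed 0.1 in TIM4+CD206hi KCs only. Their log2 fold changes shifted by a median of -0.16 with median centring and of -0.24 with quantile normalization, and the 758 genes called higher and 295 lower became 664 and 518 with quantile normalization. In the Id3 comparison 395 and 432 became 328 and 550 with median centring. Single ligands of the TIM4+CD206+ table moved with quantile normalization too, Cxcl1 from 0.23 to 0.069, Cxcl2 from 0.52 to 0.41 and Cxcl12 from -0.82 to -0.98.

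**Figure D3:**
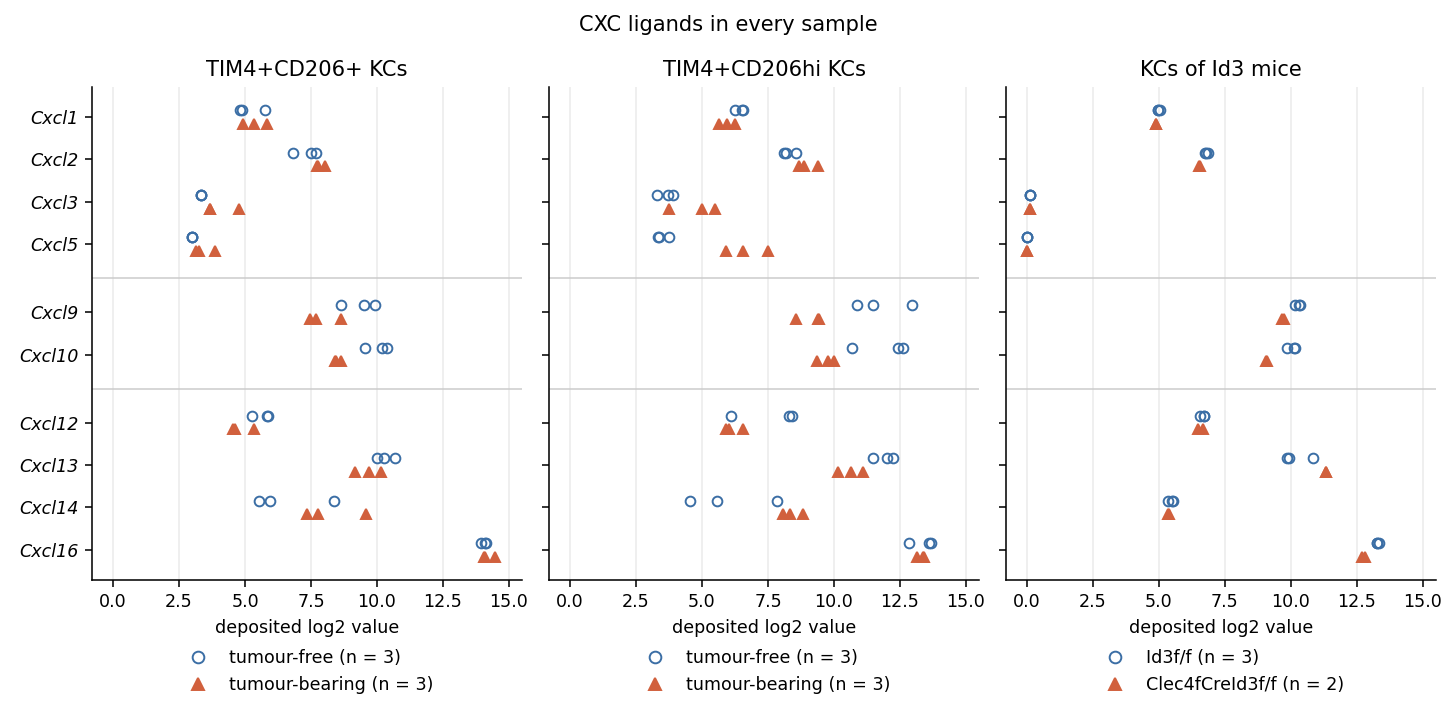
Deposited log2 value of the 10 ligands in every sample, with a panel for each table (circles, tumour-free or Id3f/f; triangles, tumour-bearing or Clec4fCreId3f/f); lines separate neutrophil-attracting, interferon-induced and homeostatic ligands. Circles of Cxcl10 lie to the right of the triangles in all 3 panels, and those of Cxcl5 to the left in the TIM4+CD206hi panel.

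Cxcl5, a neutrophil attractant that epithelial cells are known to make, was the ligand with the largest fitted change, and it rose with tumour in TIM4+CD206hi KCs. Its log2 value was 3.33, 3.76 and 3.37 in the tumour-free samples and 6.55, 7.49 and 5.89 in the tumour-bearing ones, so that the lowest tumour-bearing sample was well above all tumour-free ones. The log2 fold change was 3.16 (SE 0.40, 95% interval 2.23 to 4.09), or 8.94-fold on the scale of the deposited values, with a limma adjusted p of 0.00327. It remained called without any single library, with an adjusted p of at most 0.0273, and was 3.30 without tumour-free replicate 2 and 3.10 without tumour-free replicate 3. In these bulk samples, a change in the number of cells of a type and a change in RNA per cell cannot be told apart. The epithelial tumour and neutrophil markers rose in the same samples.

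Cxcl5 did not pass the filter in TIM4+CD206+ KCs. It was at 2.99 in all 3 tumour-free samples and at 3.85, 3.14 and 3.26 in the tumour-bearing ones, a difference of 0.43 that was not tested. Every sample of the Id3 table had it at 0. Whether the tumour response of Cxcl5 differed between the subsets was not tested, since their tables were normalized apart.

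Cxcl2, a rapidly induced ligand made by macrophages, was the most abundant of the neutrophil-attracting group. In TIM4+CD206+ KCs it was at 7.48, 6.82 and 7.69 without and 7.78, 7.73 and 8.05 with tumour, and in TIM4+CD206hi KCs at 8.57, 8.20 and 8.09 without and 8.86, 9.38 and 8.69 with tumour. The groups did not overlap in either subset, yet neither difference passed the test. The log2 fold change was 0.52 (SE 0.29, limma adjusted p = 0.423) in TIM4+CD206+ and 0.69 (SE 0.25, adjusted p = 0.180) in TIM4+CD206hi KCs. With Id3 deletion it went from 6.84, 6.75 and 6.80 to 6.56 and 6.52, a difference of -0.26 (SE 0.07, limma adjusted p = 0.0647). That difference passed with the stricter filter, with median centring and without Id3f/f replicate 3, at adjusted p of 0.0466, 0.0466 and 0.0434.

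Cxcl1, the ligand next to Cxcl2 on the chromosome, did not change past the test in any comparison. Its values were 4.87, 4.80 and 5.75 without and 5.83, 5.34 and 4.94 with tumour in TIM4+CD206+ KCs, which overlap (0.23, 95% interval -0.52 to 0.98). The TIM4+CD206hi values were 6.53, 6.27 and 6.55 without and 6.24, 5.95 and 5.65 with tumour, the opposite side to Cxcl2 (-0.50, 95% interval -1.04 to 0.03, limma adjusted p = 0.263). With Id3 deletion the difference was -0.09 (95% interval -0.19 to 0.00).

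Cxcl3 was near the floor of the transformed values without tumour. Its value was 3.34 in all tumour-free and 3.68, 4.79 and 3.68 in the tumour-bearing TIM4+CD206+ samples. The TIM4+CD206hi samples had 3.91, 3.71 and 3.30 without and 3.75, 5.49 and 5.0 with tumour, where the first tumour-bearing sample lay among the tumour-free ones. The log2 fold changes of 0.71 (SE 0.28, limma adjusted p = 0.245) and 1.11 (SE 0.44, adjusted p = 0.209) did not pass, but the second became 1.60 (adjusted p = 0.0331) without tumour-bearing replicate 1. It was not tested in the Id3 table, with 0.10 to 0.12 in every sample.

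Cxcl10, a ligand of Cxcr3, was lower in tumour-bearing KCs of both subsets and in Id3-deleted KCs. Its values were 10.39, 9.53 and 10.20 without and 8.45, 8.40 and 8.62 with tumour in TIM4+CD206+ KCs. In the TIM4+CD206hi subset it was at 12.42, 10.70 and 12.61 without and at 9.36, 9.77 and 10.00 with tumour. In Id3f/f samples it was at 10.12, 10.15 and 9.85 and in Clec4fCreId3f/f samples at 9.04 and 9.10. In each table the groups did not overlap, although tumour-free replicate 2 was the lowest of its group in both subsets. The labels do not say whether the 2 subsets were sorted from the same mice, so they may not be independent.

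The log2 fold change of Cxcl10 was -1.55 (SE 0.26, 2.92-fold lower, limma adjusted p = 0.0158) in TIM4+CD206+ KCs and -2.20 (SE 0.50, 4.58-fold lower, adjusted p = 0.0425) in TIM4+CD206hi KCs. The tumour calls depended on single libraries: the adjusted p without one library ranged from 0.00227 to 0.0784 in TIM4+CD206+ KCs, where the call held only without tumour-free replicate 2, and from 5.73e-04 to 0.166 in TIM4+CD206hi KCs, where the same was true. With no filter or the stricter one, the TIM4+CD206hi p was 0.0583 or 0.0592. The fold change itself stayed between -1.80 and -1.37 and between -2.80 and -1.85. Hepatocyte markers, as given above, were lower in the same tumour-bearing samples. The B cell marker sums were lower too in both subsets, without overlap. So were the endothelial and T or NK cell sums of TIM4+CD206hi KCs and the KC marker sum of TIM4+CD206+ KCs. The part of these cells in the Cxcl10 and Cxcl9 values was not tested. With Id3 deletion the log2 fold change was -0.97 (SE 0.11, 1.96-fold lower, limma adjusted p = 0.00266), and it was lost without either Clec4fCreId3f/f library, at adjusted p of 0.0740 and 0.0848.

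Cxcl9, the other Cxcr3 ligand and the more strictly interferon gamma-dependent one, had the same direction. It was at 9.52, 8.63 and 9.93 without and at 7.71, 7.46 and 8.64 with tumour in TIM4+CD206+ KCs, where the highest tumour-bearing sample just overlapped the lowest tumour-free one. In the TIM4+CD206hi subset it was at 11.48, 10.89 and 12.95 without and at 8.54, 9.38 and 9.43 with tumour, a clear separation. In Id3f/f samples it was at 10.36, 10.32 and 10.15 and in Clec4fCreId3f/f samples at 9.75 and 9.67.

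Cxcl9 fell by 2.65 on the log2 scale with tumour in TIM4+CD206hi KCs (SE 0.53, 6.28-fold lower, limma adjusted p = 0.0254). The call was lost without tumour-free replicate 1 or without any tumour-bearing replicate, at adjusted p of 0.0694 to 0.108, and held without tumour-free replicate 2 (-3.09, adjusted p = 0.00534) or tumour-free replicate 3 (-2.06, adjusted p = 0.0201). The TIM4+CD206+ difference of -1.42 (SE 0.41, limma adjusted p = 0.116) did not pass. Same-numbered samples deviated together in that table, though the labels do not describe a pairing. A fit blocked on the replicate number gave an adjusted p of 0.00325, and the fit without tumour-free replicate 2 gave 0.0274. With Id3 deletion Cxcl9 fell by 0.57 (SE 0.10, 1.48-fold lower, limma adjusted p = 0.0140), a call lost without Id3f/f replicate 1 (0.0596) or either Clec4fCreId3f/f library (0.171 and 0.197).

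Cxcl9 and Cxcl10 varied together among samples. Over the 17 samples, with each table centred on its mean, their values had a Pearson r of 0.93, the highest among the pairs of the 8 ligands that passed the filter in all tables. The points share libraries, depth and the group differences given above, and r is a description only.

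Cxcl13, the ligand that recruits B cells, moved in opposite directions in the tumour and Id3 tables. Its TIM4+CD206hi values were 11.47, 12.00 and 12.24 without and 10.63, 10.16 and 11.08 with tumour, with no overlap, and it fell by 1.28 (SE 0.30, 2.43-fold lower, limma adjusted p = 0.0464). The TIM4+CD206+ samples had 10.69, 10.01 and 10.24 without and 9.69, 9.16 and 10.15 with tumour, which overlap (-0.65, SE 0.29, adjusted p = 0.304). Cxcl13 was at 9.92, 9.87 and 10.83 in Id3f/f and at 11.31 and 11.32 in Clec4fCreId3f/f samples, above all of the former, and rose by 1.11 (SE 0.24, 2.16-fold, limma adjusted p = 0.0291). Id3f/f replicate 3 was nearest to the deleted samples.

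Both Cxcl13 calls were lost under several alternatives. Without the trend of variance on mean the adjusted p was 0.0525 in TIM4+CD206hi KCs and 0.0809 with Id3 deletion, and without the filter on low values it was 0.0621 and 0.0586. The TIM4+CD206hi call held only without tumour-free replicate 2 (adjusted p = 0.0387) and otherwise had adjusted p of 0.0513 to 0.173 when a single library was left out, with the fold change between -1.51 and -1.05. The Id3 call was lost without Id3f/f replicate 1 (0.113), Id3f/f replicate 2 (0.0864) or either Clec4fCreId3f/f library (0.214 and 0.259), and the difference was 1.42 without Id3f/f replicate 3. Of 5 B cell markers 2 fell in TIM4+CD206hi KCs, where they summed to between 3481 and 4048 without and between 1898 and 2049 with tumour, and 3 of 4 tested fell in TIM4+CD206+ KCs, with sums of 8691 to 9208 and 4089 to 4658. In the Id3 table, where limma called 0 of 4 and 0 had an unadjusted p under 0.05, they summed to between 1322 and 1537 in Id3f/f and between 1492 and 1534 in Clec4fCreId3f/f samples. Their part was not tested.

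Cxcl16, a transmembrane ligand and scavenger receptor of macrophages, passed the test with Id3 deletion and in neither subset with tumour. It was at 13.93, 14.08 and 14.12 without and at 14.04, 14.46 and 14.08 with tumour in TIM4+CD206+ KCs (0.15, 95% interval -0.23 to 0.54). In the TIM4+CD206hi subset it was at 13.59, 13.66 and 12.83 without and at 13.39, 13.36 and 13.13 with tumour (-0.07, 95% interval -0.65 to 0.51), and this sign turned with quantile normalization (0.02). With Id3 deletion it went from 13.28, 13.27 and 13.32 to 12.79 and 12.70 and fell by 0.55 (SE 0.08, 1.46-fold lower, limma adjusted p = 0.00618). Leaving out either Clec4fCreId3f/f library raised that p to 0.137 and 0.170. Zmynd15, whose exons overlap, was at 10.94 to 11.01 in Id3f/f and 10.49 to 10.55 in Clec4fCreId3f/f samples.

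Cxcl14, an epithelial and stromal ligand, passed the test in no comparison. For TIM4+CD206+ KCs it was at 5.94, 8.38 and 5.51 without and at 7.35, 9.58 and 7.76 with tumour, and in TIM4+CD206hi KCs at 5.55, 7.83 and 4.54 without and at 8.07, 8.81 and 8.33 with tumour. Replicate 2 was the highest of its group in all 4 groups. The log2 fold changes of 1.62 (SE 0.81, limma adjusted p = 0.363) and 2.43 (SE 0.77, adjusted p = 0.123) did not pass. Blocked on the replicate number, which the labels do not describe as a pairing, the former had an adjusted p of 0.00506. Without tumour-free replicate 2 the differences were 2.51 (adjusted p = 0.0475) and 3.36 (adjusted p = 0.00195). The epithelial tumour markers, which rose with tumour, summed to 1769 in tumour-free replicate 2 of TIM4+CD206+ KCs, the lowest of its group, and to 2444 in that of TIM4+CD206hi KCs, the highest of its group. Stellate cell markers summed to 382 and 1202 in the same libraries, the lowest of each group. In tumour-bearing replicate 2 they summed to 381, the lowest, and to 1242, the highest. The part of either cell type was not tested. With Id3 deletion the difference was -0.11 (SE 0.06, limma adjusted p = 0.339).

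Cxcl12, a ligand made largely by stroma and endothelium, was low per kb in all groups. Its length was taken as 7160 bases, the union of all its exons, and its rank depends on that length. The TIM4+CD206hi samples had 8.41, 8.30 and 6.10 without and 6.03, 5.92 and 6.56 with tumour, where tumour-free replicate 3, the library furthest from its group, lay with the tumour-bearing samples. The difference of -1.43 (SE 0.61, limma adjusted p = 0.237) did not pass with it and was -2.18 (SE 0.25, adjusted p = 0.00671) without it. Endothelial markers fell in the same comparison. They summed to 260801 in tumour-free replicate 3 and to 269869 and 171727 in the other tumour-free libraries. Of 8 stellate cell markers 3 fell too, with sums of 1202 to 1723 without and 623 to 1242 with tumour, and the part of either cell type was not tested. For TIM4+CD206+ KCs Cxcl12 was at 5.83, 5.26 and 5.86 without and at 4.53, 4.61 and 5.34 with tumour (-0.82, SE 0.28, limma adjusted p = 0.183). In the Id3 samples it was at 6.57 to 6.72 in Id3f/f and at 6.46 and 6.66 in Clec4fCreId3f/f samples, which overlap (-0.10, 95% interval -0.30 to 0.09).

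**Figure D4:**
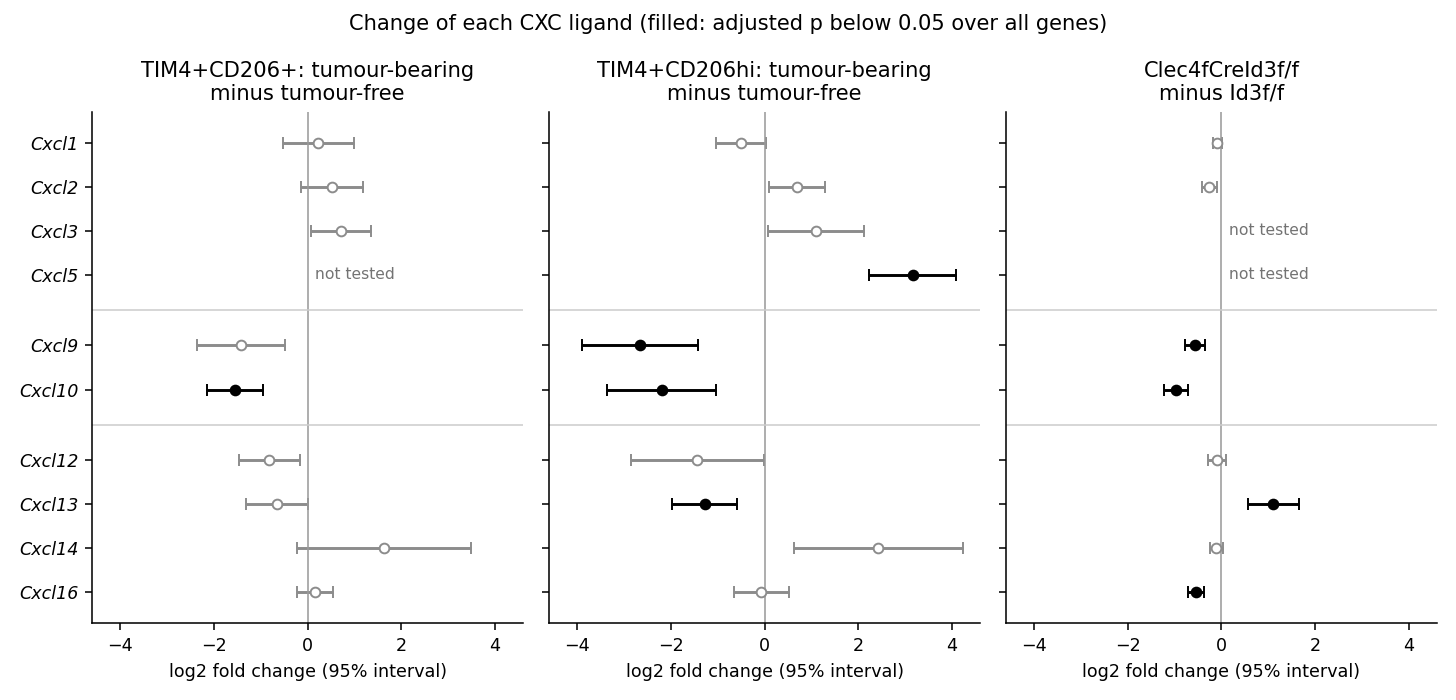
Log2 fold change of each ligand with its 95% interval in the 3 comparisons (filled, limma adjusted p under 0.05 over all genes; open, not passed). Cxcl9 and Cxcl10 lie left of 0 in all panels, Cxcl5 has the largest rise at 3.16, and Cxcl13 lies left of 0 with tumour and right of it with Id3 deletion.

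The other 5 CXC ligands of the tables were Cxcl11, Cxcl15, Cxcl17, Pf4 and Ppbp. Cxcl15 was at 0 throughout. Of those tested with tumour, limma called 0 of 3 in TIM4+CD206+ and 0 of 4 in TIM4+CD206hi KCs, and 1 in each subset had an unadjusted p under 0.05. Cxcl11, the remaining Cxcr3 ligand, was at 6.06, 4.50 and 5.23 without and at 3.84, 3.85 and 3.98 with tumour in TIM4+CD206hi KCs (-1.37, SE 0.37, limma adjusted p = 0.0787), a lower value in every tumour-bearing sample. With Id3 deletion 1 of 3 passed: Pf4, the platelet factor also made by macrophages, fell from 9.28, 9.14 and 9.19 to 8.39 and 8.55 (-0.73, SE 0.10, limma adjusted p = 0.00489).

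Among 8 receptors of CXC ligands, Cxcr2, the receptor of the neutrophil-attracting group, rose with tumour from 7.66 ± 0.15 to 9.63 ± 0.38 in TIM4+CD206+ KCs (SD, n = 3; 1.96, SE 0.25, limma adjusted p = 0.0043) and from 7.92 ± 0.27 to 10.32 ± 0.49 in TIM4+CD206hi KCs (2.40, SE 0.29, adjusted p = 0.00283). Neutrophil markers rose in the same samples, and their part was not tested. Cxcr3, the receptor of Cxcl9 and Cxcl10, fell from 9.83 ± 0.08 to 8.83 ± 0.17 in TIM4+CD206+ KCs (SD, n = 3; limma adjusted p = 0.0295). T or NK cell markers there summed to between 2284 and 4783 without and between 2279 and 2455 with tumour, where limma called 0 of 7 and 2 had an unadjusted p under 0.05. With tumour 1 receptor was called higher and 2 lower in TIM4+CD206hi KCs: Ackr1, a decoy receptor of endothelium and erythroid cells, fell by 1.44 (adjusted p = 0.0311), and Cxcr6, named after its values were seen, fell by 0.94 (adjusted p = 0.0342). The T or NK cell markers of that subset summed to between 1988 and 2488 without and between 1428 and 1516 with tumour, with no overlap; limma called 0 of 7, and 4 were lower at an unadjusted p under 0.05. Their part in the receptor values was not tested. With Id3 deletion limma called 0 of 6 receptors tested, and 1 had an unadjusted p under 0.05, Cxcr4 (-0.15, SE 0.04, adjusted p = 0.0697).

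The interferon gamma response list held 17 genes, all tested. With tumour, 0 were called higher and 1 lower in TIM4+CD206+ KCs, against 2.55% and 0.998% of all genes tested. Of the 17, 15 were below 0, with a median log2 fold change of -0.65 against 0.02 over all genes tested. The one called was Igtp, an interferon-induced GTPase (-1.15, SE 0.23, limma adjusted p = 0.0348). For the TIM4+CD206hi subset limma called 0 of 17, with 13 below 0 and a median of -0.66. An unadjusted p under 0.05 was found for 8, against 3069 of the 14561 genes tested. With Id3 deletion 8 of 17 fell and 0 rose, against 3.37% and 3.08% of all genes tested, with a median of -0.32. Among those that fell were Irgm1, another such GTPase (-0.78, SE 0.08, limma adjusted p = 0.00165), and Psmb9, a subunit of the immunoproteasome (-0.88, SE 0.10, adjusted p = 0.00305).

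Of 16 genes of the NF-kB pathway and its targets, 1 fell in TIM4+CD206+ KCs with tumour (Nfkbie, an NF-kB inhibitor, -0.89, SE 0.19, limma adjusted p = 0.0476), limma called 0 in TIM4+CD206hi KCs, where 3 had an unadjusted p under 0.05, and 1 of 15 tested fell with Id3 deletion (Il1b, an inflammatory cytokine, -0.64, SE 0.09, adjusted p = 0.00618). The lymphotoxin axis, known for inducing Cxcl13 in lymphoid stroma, had 0 of 5 genes called by limma in TIM4+CD206+ KCs, with 1 at an unadjusted p under 0.05, and 1 of 5 in TIM4+CD206hi KCs (Tnfsf14, a ligand of the lymphotoxin receptor, higher by 1.45, SE 0.32, limma adjusted p = 0.0391). With Id3 deletion limma called 0 of 3, and 0 had an unadjusted p under 0.05.

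Of 7 proteases known to cut CXC ligands, Mmp8, the neutrophil collagenase, rose with tumour by 1.75 (SE 0.27, limma adjusted p = 0.0108) in TIM4+CD206+ and 2.30 (SE 0.43, adjusted p = 0.0205) in TIM4+CD206hi KCs, beside the neutrophil markers. Mmp12, macrophage elastase, rose by 2.85 (SE 0.26, limma adjusted p = 8.06e-04) in TIM4+CD206+ KCs and fell by 1.74 (SE 0.37, adjusted p = 0.0263) with Id3 deletion. Its SD was 0.86 in the Id3f/f and 0.07 in the Clec4fCreId3f/f samples, and limma did not call it in TIM4+CD206hi KCs. Dpp4, which clips Cxcl9, Cxcl10 and Cxcl12, fell by 1.09 with tumour in TIM4+CD206hi KCs (SE 0.25, limma adjusted p = 0.0462). Mmp9, which trims neutrophil attractants, fell by 0.49 (SE 0.10, limma adjusted p = 0.0237) with Id3 deletion.

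Likeness of pattern was measured as Pearson r over the 17 samples after each table was centred, among the 12222 genes tested in all 3 tables. The genes most like Cxcl10 were Tgtp2, Igtp and Gm12250, with r of 0.98, 0.98 and 0.97. Those most like Cxcl9 were Gstk1, Gm12216 and Sept4 (0.96 each), and those most like Cxcl14 were Naa50, Cdkn2b and Arl2bp (0.96 each). For Cxcl16 the first was Zmynd15 (0.95), its overlapping neighbour, followed by Shisa5 and Ninj1 (both 0.87). For Cxcl2 they were Hist1h4d (0.93), Rpl8 (0.91) and Nek8 (0.90), for Cxcl12 Pelo (0.92), Gnb4 (0.91) and Abcb11 (0.91), for Cxcl13 Dapp1 (0.87), Tcp11l2 (0.86) and Clec4b1 (0.86), and for Cxcl1 Dnajc28 (0.84) and Phyhd1 (0.83). The samples share libraries and group differences, so these values carry no test.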

How the data were processed

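RNA-seq of KCs was analysed in 17 samples, grouped by their labels. The authors amplified RNA with SMART-Seq, aligned reads with STAR 2.7.10a to the mouse genome (mm10 in the submitters' processing notes), counted genes with HTSeq and used DESeq2. The deposited tables are named as counts and TPM, but their values are on a log2 scale and resemble regularized log values, made per table. Such values draw low genes towards a constant, so that their differences are understated, and read depth per sample cannot be recovered. A test for counts therefore did not apply.

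Genes with at least log2 of 10 in 3 samples (2 in the Id3 table) were tested with limma 3.58.1 in R 4.3.3, two-sided, with a trend of variance on mean and p-values adjusted by Benjamini and Hochberg over all genes tested, and the code was tested on simulated data. The labels do not say whether replicates were separate mice, although the authors list 2 Clec4fCreId3f/f mice and 3 Id3f/f littermates for the Id3 comparison. The p-values measure the spread between these samples. Alternatives were no filter, a stricter filter (mean of at least log2 of 50), a block on the replicate number, single samples left out, median centring, quantile normalization and no trend. Deviations of same-numbered samples correlated with r of 0.35, 0.564 and 0.149 in TIM4+CD206+ KCs, and not in the other tables (-0.132 to -0.0481). The labels give a replicate number and no pairing, so the blocked fit is an alternative only.

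Named genes were the 10 ligands, the 2 genes of smallest p in each list and comparison, and the 3 genes most like each ligand, of which 1 is not reported here. The members and lists were chosen with earlier results of these data known. Levels per kb used the union of all exons of a gene in GENCODE M21, and promoters came from RefSeq. A gene whose transcripts are shorter than this union is placed too low per kb. Other tools were Python 3.11.15, pandas 2.3.3 and matplotlib 3.10.9.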

Additional observations from a re-analysis of the deposited data

How the results depend on the processing

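The number of ligands called moved with the settings. In TIM4+CD206+ KCs it was 1, 3 with the replicate block and, leaving out single samples, 3 when tumour-free replicate 2 was dropped and 0 when any other was. In TIM4+CD206hi KCs it was 4, and 2 without a filter and 1 with the stricter filter, under which Cxcl5 could not be tested, and 5 and 3 when tumour-free replicates 2 and 3 were dropped in turn, and 1 or 2 without any other library. In the Id3 comparison it was 4, and 0 to 5 with single samples left out, where leaving out either Clec4fCreId3f/f sample gave 0; the remaining sample is then assumed to vary like the Id3f/f group. Over all genes, 469 calls in TIM4+CD206+ KCs became 1026 with the block, 1022 without tumour-free replicate 2 and 231 to 261 without any other library. In TIM4+CD206hi KCs 1053 became 600 with the stricter filter, 3634 and 1276 when tumour-free replicates 2 and 3 were dropped in turn, and 579 to 649 without any other library. In the Id3 comparison 827 became 477 without a filter, 2089 with the block, 207, 410 and 1850 without Id3f/f replicates 1, 2 and 3, and 17 and 19 without Clec4fCreId3f/f replicates 1 and 2.

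The replicate block changed the calls of Cxcl9 and Cxcl14 in TIM4+CD206+ KCs, as given above. By the labels, samples share only a number in every table. In the other tables the block gave 5 ligands called in TIM4+CD206hi KCs, with Cxcl14 added (adjusted p = 0.0379), and 6 in the Id3 comparison, with Cxcl2 (0.0283) and Cxcl14 (0.0427) added. In the Id3 comparison Id3f/f replicate 3 has no counterpart and adds nothing to the blocked difference. Few residual degrees of freedom remain there, so the blocked p-values and calls are poorly determined.

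Signs turned only where the difference was near 0. Cxcl1 in TIM4+CD206+ KCs ranged from -0.0026, without tumour-bearing replicate 1, to 0.53 with single samples left out. Cxcl16 in TIM4+CD206hi KCs was at 0.015 with quantile normalization, and at 0.049, 0.082 and 0.015 without tumour-free replicate 1, tumour-free replicate 2 and tumour-bearing replicate 3, in a range from -0.33 to 0.082. Without a filter, Cxcl10 and Cxcl13 in TIM4+CD206hi KCs had limma adjusted p of 0.0583 and 0.0621 and Cxcl13 in the Id3 comparison 0.0586. The stricter filter gave 0.0592 and 0.0642 in TIM4+CD206hi KCs. Fitting no trend ended both Cxcl13 calls (0.0525 and 0.0809) and left 3 ligands called in each of these comparisons. Among all values of single ligands under the alternatives, 254 kept direction and side of the threshold, 37 lost the call, 13 gained it and 5 turned sign.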
